A study of Homo sapiens with 2 samples.

Results

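Transcripts of 10 genes of the FOXO axis were followed in MCF10A cells that had been given epidermal growth factor (EGF) and then an inhibitor of MEK or of PI3K. The genes are the transcription factors FOXO1 and FOXO3 and 8 genes that these factors are known to induce, namely CCNG2, YPEL3, CITED2, IRS2, INSR, FBXO32, KLHL24 and SESN1. They were chosen by name, with earlier results of these data known, and are 10 of the 16387 genes listed in both count tables. Their counts beside the shares over all genes are therefore a description. All 10 passed the filter on low counts and are among the 11147 genes tested. MCF10A is an immortalised, non-tumorigenic line of human breast epithelial cells that depends on added EGF to divide, so all groups share 1 genetic background. The question put by the study is how MEK and PI3K activity, when removed late after EGF, each bear on progress through the cell cycle.

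FOXO factors are forkhead proteins that bind DNA and raise the transcription of genes for growth arrest, insulin signalling, protein breakdown and stress defence. PI3K activates the kinase AKT, which phosphorylates FOXO proteins, and the phosphorylated proteins are held in the cytoplasm, away from their target genes. ERK, the kinase activated by MEK, can also phosphorylate FOXO3 and promote its breakdown. These are changes of proteins, whereas the data here are levels of RNA.

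The 8 conditions were unstimulated cells (0 h), EGF alone for 15 h, 20 h and 30 h, EGF with the MEK inhibitor, sampled at 20 h and 30 h, and EGF with the PI3K inhibitor, sampled at 20 h and 30 h. Both inhibitors were added 15 h after EGF, and no condition combined them. Each of 2 biological replicates was 1 pooled library in which every condition carried its own sample tag, so n = 2 throughout. The sources used here do not name the inhibitors or give their doses.

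The libraries held 2616 and 2221 cells with 3141 to 31090 transcript molecules (UMIs) per cell, and shared 0 cell barcodes. Summed counts per library and condition ran from 213208 to 8508781 UMIs. The unstimulated sum of library 2 was the smallest and came from 29 cells, against 175 in library 1, and the 15 h sum of library 2 came from 64 cells. The unstimulated libraries also differed in their cells: 94.9% of cells in library 1 and 34.5% in library 2 lay in the lowest range of a score of 97 S phase and G2/M transcripts. All 7 mammary basal epithelial markers were listed, with a summed level of 12366 to 27478 CPM (counts scaled to the same total per library). The 4 general epithelial markers summed to 286.8 to 824.7 CPM, with EPCAM at 0.70 to 12.7. Of the luminal hormone receptor markers 3 of 4 were listed. The hormone receptor ESR1 was at 0 to 0.98 CPM, FOXA1 at 0 to 2.58 and GATA3 at 2.59 to 18.8. Of the fibroblast markers 3 of 7 were listed in both tables, at a summed 6.96 to 96.3 CPM. Nearly all of that sum was DCN, which followed the members in part: the sum was 96.3 and 93.8 CPM in unstimulated cells, 13.3 and 9.39 at 30 h of EGF, 49.0 and 23.7 under MEK inhibition and 16.2 and 6.96 under PI3K inhibition. Its part in the results was not tested. The defining collagen gene COL1A1 was at 0 to 5.58 CPM and PDGFRB at 0 to 0.38. Endothelial markers (2 of 4 listed) summed to 0 to 4.88 CPM and immune markers (3 of 6 listed) to 0 to 9.29.

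Forkhead motifs are the sequence feature through which FOXO proteins find their targets, so the start of each gene was searched first. RefSeq windows of 300 bases (250 before and 50 after a transcript start, build GRCh38.p14) were given for 9 members in 16 windows, and FBXO32 has no entry. The insulin-responsive form CAAAACAA was found in 1.68% of 35116 windows, the forkhead form GTAAACA in 3.42% and CAAAATAA in 1.57%, with both strands searched. Among the members IRS2 held the first of these, on the minus strand of the window (read here as its complement, TTGTTTTG), and YPEL3 held GTAAACA at its transcript start. CAAAATAA was in 0 of the 16 windows. A match is a run of letters and no evidence of binding. The stretches with a match, at chr13:109786584-109786733 (minus strand) for IRS2 and chr16:30096207-30096363 (minus strand) for YPEL3, are shown with the match in capitals. A part of the CCNG2 window, at chr4:77157057-77157206 (plus strand), is set beside them. With the PI3K inhibitor at 20 h IRS2, YPEL3 and CCNG2 rose by 1.32, 1.93 and 1.92 on the log2 scale. Whether a match bears on these rises was not tested. The whole window of CCNG2 held no match, and sequence outside the windows was not searched.
IRS2: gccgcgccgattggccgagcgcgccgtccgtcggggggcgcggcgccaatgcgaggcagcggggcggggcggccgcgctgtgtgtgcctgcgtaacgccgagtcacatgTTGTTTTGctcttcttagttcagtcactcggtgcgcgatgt
YPEL3: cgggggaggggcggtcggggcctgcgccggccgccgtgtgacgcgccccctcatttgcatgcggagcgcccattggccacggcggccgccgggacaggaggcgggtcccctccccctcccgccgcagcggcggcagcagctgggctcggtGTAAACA
CCNG2: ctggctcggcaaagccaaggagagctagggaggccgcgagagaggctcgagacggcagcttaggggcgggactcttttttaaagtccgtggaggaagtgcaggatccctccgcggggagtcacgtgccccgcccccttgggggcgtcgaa

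EGF lowered nearly the whole set as a share of UMIs. At 15 h of EGF 9 of the 10 genes were lower than in unstimulated cells by edgeR's quasi-likelihood test (adjusted p under 0.05), with INSR as the exception, while 13.9% of all tested genes were lower. The median log2 difference of the members was -1.77, against 0.02 over all genes. Together the 10 genes took 0.0351% and 0.0497% of all UMIs in unstimulated cells of libraries 1 and 2, and 0.0108% and 0.0150% at 15 h. Per cell they held 2.87 and 3.66 UMIs in unstimulated cells and 1.35 and 1.48 at 15 h, a smaller fall. Median UMIs of all genes per cell rose from 7975 and 7024 to 12163.5 and 8400. CITED2 in library 2 (0.345 to 0.391 UMIs per cell) and INSR in library 1 (0.051 to 0.070) did not fall per cell. FBXO32 and YPEL3 had the largest falls of the set.

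**Figure D1:**
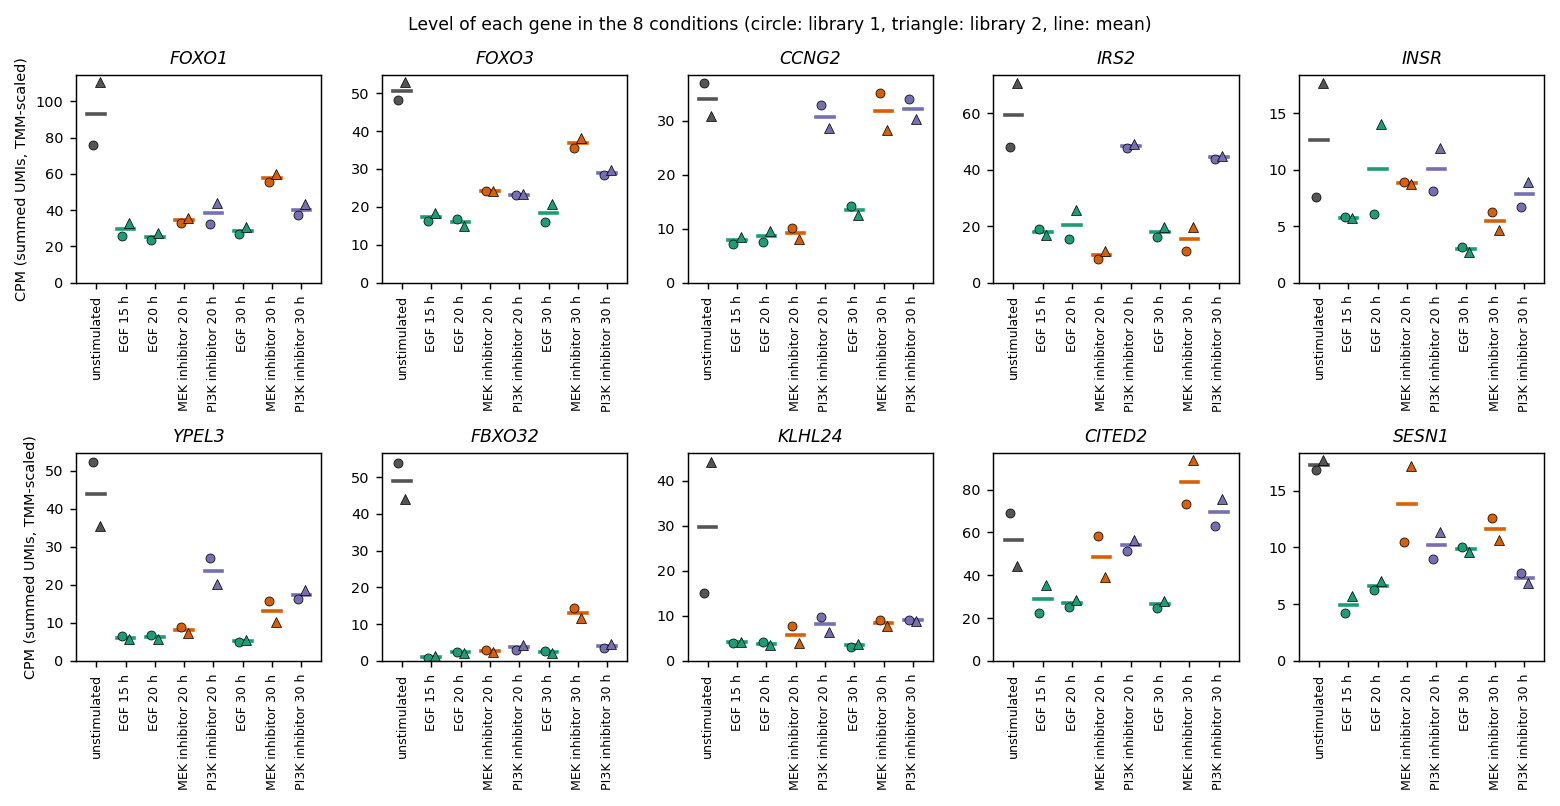
TMM-scaled CPM of each of the 10 genes (1 panel per gene, vertical axis in CPM) in the 8 conditions, with 1 point per library and a line at the mean of the 2 libraries. Unstimulated cells are highest for most genes, EGF alone is low at 15 h, 20 h and 30 h, and most inhibitor conditions at 30 h lie above EGF alone of that time. IRS2 with the MEK inhibitor and SESN1 with the PI3K inhibitor do not.

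The factors themselves come first. FOXO1 (gene at chr13:40469953-40666597, minus strand, GENCODE v29 on GRCh38) was at 75.9 and 110.4 TMM-scaled CPM in unstimulated cells of libraries 1 and 2. It was at 26.0 and 32.7 CPM at 15 h of EGF, 23.6 and 27.2 at 20 h and 26.9 and 30.4 at 30 h. The fall at 15 h was -1.60 on the log2 scale (SE 0.19, adjusted p = 2.9e-09), and the 3 EGF-alone times overlapped each other. With the MEK inhibitor FOXO1 was at 32.6 and 35.9 CPM at 20 h and 55.5 and 59.9 at 30 h, a mean of 57.7 ± 3.11 (SD, n = 2). With the PI3K inhibitor it was at 32.3 and 44.1 CPM at 20 h and 37.1 and 43.6 at 30 h. Each inhibitor group lay above EGF alone of its own time with no overlap, although the MEK inhibitor at 20 h did not pass the test (0.43, SE 0.15, adjusted p = 0.0571), and only the MEK inhibitor's 30 h group stood above every other group of stimulated cells.

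FOXO3 (chr6:108559835-108684774, plus strand) had the same order of conditions at the top. Its level was 48.1 and 53.0 CPM in unstimulated cells, 16.3 and 18.5 at 15 h of EGF, 16.9 and 15.0 at 20 h and 16.1 and 20.6 at 30 h. The MEK inhibitor groups were at 24.1 and 24.1 CPM at 20 h and 35.4 and 38.1 at 30 h, and the PI3K inhibitor groups at 23.0 and 23.3 and at 28.3 and 29.8. As for FOXO1, all inhibitor groups lay above EGF alone of the same time. Across the 16 sums, after centring each library, the log2 levels of FOXO1 and FOXO3 correlated with r = 0.96, the highest of the 45 pairs of members. This is a description over sums that share libraries. The other FOXO genes, FOXO4 and FOXO6, were not among the genes tested.

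Rises in CPM of the factors under the PI3K inhibitor were modest, and at 30 h that of FOXO1 was not seen in raw UMIs per cell. At that time FOXO1 was 0.49 above EGF alone on the log2 scale (SE 0.13, adjusted p = 0.00169), but cells held 0.396 and 0.532 FOXO1 UMIs each, against 0.416 and 0.523 with EGF alone. These cells also held fewer UMIs of all genes, with medians of 11952 and 11650 per cell, against 16000 and 15371 with EGF alone. Similar FOXO1 UMIs per cell were thus a larger share of the total. Scaled to library totals in place of TMM the FOXO1 difference was 0.26 (adjusted p = 0.109), so the call ended. At 20 h cells held 0.346 and 0.476 FOXO1 UMIs with the PI3K inhibitor and 0.336 and 0.365 with EGF alone. Median UMIs of all genes per cell were then 11742 and 9945 against 14270 and 11508. With the MEK inhibitor at 30 h, cells held 0.639 and 0.839 FOXO1 UMIs, above EGF alone in both libraries. At 30 h FOXO3 stood at 0.303 and 0.363 UMIs per cell with the PI3K inhibitor and 0.249 and 0.355 with EGF alone.

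CCNG2, an unconventional cyclin that restrains the cycle, rose with the PI3K inhibitor at 20 h and 30 h, and with the MEK inhibitor passed the test at 30 h but not at 20 h. CCNG2 (chr4:77157151-77433388, plus strand) was at 37.1 and 30.9 CPM in unstimulated cells, 7.13 and 8.52 at 15 h of EGF, 7.54 and 9.59 at 20 h and 14.2 and 12.5 at 30 h. With the PI3K inhibitor it was at 32.9 and 28.7 CPM at 20 h and 34.1 and 30.4 at 30 h. With the MEK inhibitor it was at 10.1 and 8.15 CPM at 20 h, overlapping EGF alone, and 35.2 and 28.4 at 30 h. The unstimulated, both PI3K inhibitor and 30 h MEK inhibitor groups overlapped in one high band of 28.4 to 37.1 CPM. Per cell the picture was alike at 30 h, with 0.220 and 0.215 UMIs under EGF alone, 0.405 and 0.398 under MEK inhibition and 0.364 and 0.371 under PI3K inhibition.

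YPEL3, a small nuclear protein linked to growth arrest and senescence, was at 52.3 and 35.3 CPM in unstimulated cells and between 5.01 and 6.74 CPM in all sums of EGF alone. Its gene lies at chr16:30092314-30096915 on the minus strand. The PI3K inhibitor groups were at 27.0 and 20.3 CPM at 20 h and 16.2 and 18.7 at 30 h. The MEK inhibitor groups were at 8.93 and 7.24 CPM at 20 h and 15.8 and 10.3 at 30 h. All inhibitor groups lay above every EGF-alone sum and below the unstimulated cells, and the 20 h PI3K inhibitor group was the highest of the stimulated cells.

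CITED2, a transcriptional co-regulator that binds CBP and p300, rose with both inhibitors at both times. Its level (gene at chr6:139371807-139374620, minus strand) was 69.2 and 44.2 CPM in unstimulated cells and between 22.6 and 35.5 CPM in all sums of EGF alone. It was at 58.3 and 39.2 CPM with the MEK inhibitor at 20 h and 73.1 and 93.6 at 30 h, and at 51.4 and 56.4 and then 63.2 and 75.8 with the PI3K inhibitor. No inhibitor group overlapped EGF alone, and the 30 h inhibitor groups overlapped each other. The fall at 15 h of EGF was -1.40 (SE 0.24, adjusted p = 9.83e-06) but uneven, at -1.59 in library 1 and -0.31 in library 2, whose 15 h sum came from 64 cells.

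The insulin signalling genes IRS2 and INSR did not move alike. IRS2 encodes the adaptor that couples insulin and IGF1 receptors to PI3K, and lies at chr13:109752698-109786568 on the minus strand. It was at 48.1 and 70.7 CPM in unstimulated cells, 18.8 and 17.0 at 15 h of EGF, 15.6 and 25.6 at 20 h and 16.1 and 19.6 at 30 h. The PI3K inhibitor groups stood at 47.8 and 49.0 CPM at 20 h and 43.8 and 45.0 at 30 h, which at 20 h overlapped the unstimulated cells. With the MEK inhibitor IRS2 was at 8.54 and 11.2 CPM at 20 h, under every sum of EGF alone, and at 11.1 and 19.7 at 30 h, overlapping EGF alone.

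INSR (chr19:7112255-7294034, minus strand), the insulin receptor, rested on 9 and 4 UMIs in unstimulated cells (7.59 and 17.7 CPM). Under EGF alone it was at 5.77 and 5.68 CPM at 15 h, 6.10 and 14.1 at 20 h and 3.17 and 2.71 at 30 h. At 30 h it was at 6.28 and 4.63 CPM under MEK inhibition and 6.71 and 8.94 under PI3K inhibition. Both 30 h inhibitor groups lay above the 30 h EGF group, whose own level was the lowest of all conditions. At 20 h the 3 groups overlapped.

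FBXO32, also named atrogin-1, is the substrate-binding part of an SCF ubiquitin ligase known from muscle atrophy. It was close to absent once EGF was given: FBXO32 (chr8:123497889-123541206, minus strand) was at 54.0 and 44.2 CPM in unstimulated cells and 0.68 and 1.42 at 15 h, from 4 and 1 UMIs. Unstimulated cells were 68.2-fold higher in library 1 (exact 95% counting interval 25.4 to 258) and 29.8-fold higher in library 2 (4.24 to 1293). At 30 h it was at 2.64 and 2.20 CPM with EGF alone, 3.48 and 4.55 with the PI3K inhibitor and 14.3 and 11.6 with the MEK inhibitor. The MEK inhibitor group was 5.26-fold above EGF alone, with a log2 difference of 2.39 (SE 0.29, adjusted p = 1.57e-09), and stood clear of all other stimulated groups. At 20 h neither inhibitor group passed the test, with 3.11 and 2.41 CPM for MEK and 3.09 and 4.46 for PI3K against 2.41 and 2.24 for EGF alone.

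KLHL24, a substrate adaptor of a cullin ubiquitin ligase that acts on keratin 14 in skin, lies at chr3:183635568-183684477 on the plus strand. It was at 15.2 and 44.2 CPM in unstimulated cells, from 18 and 10 UMIs, and between 3.17 and 4.26 CPM in all sums of EGF alone. Its fall at 15 h was -2.30 (SE 0.44, adjusted p = 5.54e-05), at -1.77 in library 1 and -3.22 in library 2. At 30 h both inhibitor groups lay near 9 CPM, at 9.04 and 7.76 for MEK and 9.20 and 8.94 for PI3K, above EGF alone and overlapping each other. SESN1, a stress-induced inhibitor of mTORC1 signalling (chr6:108986437-109094819, minus strand), went its own way. It fell from 16.9 and 17.7 CPM in unstimulated cells to 4.24 and 5.68 at 15 h and was again at 10.0 and 9.64 at 30 h of EGF alone. At 30 h it was at 12.6 and 10.7 CPM under MEK inhibition and 7.71 and 6.83 under PI3K inhibition, above and below EGF alone, but neither difference passed the test.

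Over the course of EGF alone, from 15 h to 30 h, most of the set stayed low. CCNG2 rose by 0.94 on the log2 scale (SE 0.25, adjusted p = 0.00437) and SESN1 by 1.10 (SE 0.31, adjusted p = 0.00891), both in 2 of 2 libraries, against 9.98% of genes called higher. In library 2, with 64 cells at 15 h, these rises were 0.53 and 0.71. FBXO32, with 4 and 1 UMIs at 15 h, had the largest difference but did not pass (1.66, SE 0.63, adjusted p = 0.0567). It passed with library totals (1.72, adjusted p = 0.0425). INSR fell by 1.16 (SE 0.41, adjusted p = 0.0376), against 8.08% called lower. That call of INSR ended without the library block (adjusted p = 0.252) and in DESeq2 (0.135), and that of CCNG2 ended without the cells of highest depth (0.69, adjusted p = 0.113).

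The PI3K inhibitor raised most of the set at both times. At 20 h 7 of 10 members were higher than with EGF alone and 3 did not pass, with a median log2 difference of 0.81 against 0.00 over all genes and 11.4% of genes called higher. CCNG2 was higher by 1.92 (SE 0.20, adjusted p = 9.83e-11), YPEL3 by 1.93 (SE 0.23, adjusted p = 7.49e-09) and IRS2 by 1.32 (SE 0.17, adjusted p = 2.57e-08). KLHL24 (1.11), CITED2 (1.01), FOXO1 (0.56) and FOXO3 (0.51) made up the rest. Without the library block FOXO1 (adjusted p = 0.0764), FOXO3 (0.0764) and KLHL24 (0.0985) no longer passed at 20 h, which left 4 members. FOXO3 also did not pass when scaled to library totals (adjusted p = 0.13).

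At 30 h 8 of 10 members were higher with the PI3K inhibitor and 2 did not pass, with a median of 1.29 against 0.01 over all genes and 19.7% of genes called higher. YPEL3 had the largest difference, at 1.74 (SE 0.23, adjusted p = 1.31e-08). INSR was higher by 1.47 (SE 0.33, adjusted p = 0.000347), CITED2 by 1.40 (SE 0.14, adjusted p = 1.39e-11), KLHL24 by 1.36, IRS2 by 1.30 and CCNG2 by 1.27. FBXO32 (0.79, SE 0.37, adjusted p = 0.0851) and SESN1 (-0.44, SE 0.24, adjusted p = 0.141) did not pass, though SESN1 was called lower with library totals (-0.68, adjusted p = 0.0185). The INSR difference was 0.97 in library 1 and 1.55 in library 2.

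At 20 h 4 members differed between the MEK inhibitor and EGF alone. Of the 10 members 3 were higher, against 4.80% of all genes, and IRS2 was lower, against 7.15%, with a median of 0.40 over the members and 0.01 over all genes. SESN1 was higher by 1.10 (SE 0.26, adjusted p = 0.00221), at 0.70 in library 1 and 1.23 in library 2. CITED2 was higher by 0.83 (SE 0.17, adjusted p = 0.00026), at 1.18 and 0.46. FOXO3 was higher by 0.56 (SE 0.18, adjusted p = 0.03), a call that ended without the block (adjusted p = 0.0798), with library totals (0.0555), without a filter on low counts (0.0512) and in DESeq2 (0.0727). IRS2 was 1.99-fold lower (SE 0.23 on the log2 scale, adjusted p = 0.00198), which without the block had an adjusted p of 0.0902.

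By 30 h 7 of 10 members were higher with the MEK inhibitor and 3 did not pass, with a median of 1.11 against 0.01 over all genes and 18.9% of genes called higher. FBXO32 led, followed by CITED2 at 1.67 (SE 0.14, adjusted p = 1.94e-14). CCNG2, KLHL24 and YPEL3 were each higher by 1.23, FOXO1 by 1.00 and FOXO3 by 0.98. YPEL3 differed by 1.56 in library 1 and 0.87 in library 2. IRS2 (-0.15, adjusted p = 0.532), INSR (0.82, adjusted p = 0.0615) and SESN1 (0.21, adjusted p = 0.474) did not pass. Both inhibitors were set against the same EGF-alone sums, so their lists of raised genes are not independent of each other.

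The scaling bears on these counts of all genes and on some calls of members. With library totals 7 members were higher with the PI3K inhibitor at 30 h and 7 with the MEK inhibitor, and 6 and 2 at 20 h. FOXO1 with the PI3K inhibitor at 30 h and FOXO3 with either inhibitor at 20 h lost their calls. SESN1 with the PI3K inhibitor at 30 h was called lower. With library totals the median log2 difference of all genes stood at -0.22 for the PI3K inhibitor at 30 h and -0.16 for the MEK inhibitor, and at -0.14 and -0.04 at 20 h, where TMM had put it at 0.00 to 0.01. Calls then split into 1268 higher and 3688 lower genes for PI3K and 1349 and 3259 for MEK at 30 h, against nearly equal shares with TMM. At 20 h they split into 796 and 2177 for PI3K and 409 and 983 for MEK. At 15 h of EGF against unstimulated cells the median with library totals was 0.21, against 0.02 with TMM, and the split was 2260 higher and 1152 lower.

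**Figure D2:**
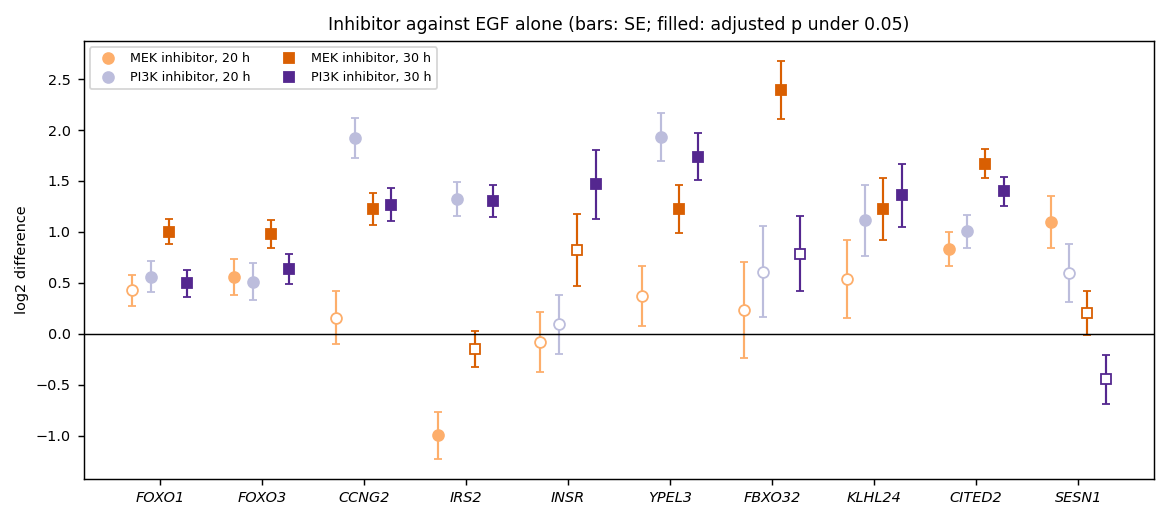
Log2 differences (vertical axis) of the 10 genes for each inhibitor against EGF alone at 20 h (circles) and 30 h (squares), from the edgeR fit, with bars of 1 SE and filled symbols for an adjusted p under 0.05. The PI3K inhibitor values are already high at 20 h for CCNG2, YPEL3 and IRS2, whereas the MEK inhibitor values of CCNG2, YPEL3 and FBXO32 are higher at 30 h than at 20 h.

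Set directly against each other, the inhibitors differed at IRS2 at both times. At 20 h 3 members were lower with the MEK than with the PI3K inhibitor, against 10.4% of all genes, and 7 did not pass. These were IRS2 (-2.32, SE 0.21, adjusted p = 1.11e-12), CCNG2 (-1.76, SE 0.22, adjusted p = 7.46e-09) and YPEL3 (-1.56, SE 0.25, adjusted p = 2.37e-06), each lower in both libraries with no overlap. At 30 h IRS2 was still lower (-1.45, SE 0.15, adjusted p = 1.22e-11), whereas CCNG2 differed by -0.04 (SE 0.13, adjusted p = 0.849) and its groups overlapped.

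At 30 h the factors and FBXO32 were higher with the MEK inhibitor. Of the members 4 were higher with the MEK inhibitor, against 21.2% of all genes, and 2 were lower, against 20.3%. FBXO32 was higher by 1.61 (SE 0.25, adjusted p = 5.39e-07), SESN1 by 0.65 (SE 0.22, adjusted p = 0.0165), FOXO1 by 0.51 (SE 0.11, adjusted p = 0.000243) and FOXO3 by 0.34 (SE 0.13, adjusted p = 0.027). YPEL3 was lower by -0.51 (SE 0.18, adjusted p = 0.0206), which rested on library 2, with -0.83 there and -0.03 in library 1. The calls of FOXO3, YPEL3 and SESN1 ended without the block (adjusted p 0.101, 0.145 and 0.0546) and in DESeq2 (0.0937, 0.127 and 0.0687), which each left 3 members. In either direction 6 of 10 members were called, against 41.6% of all genes.

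**Figure D3:**
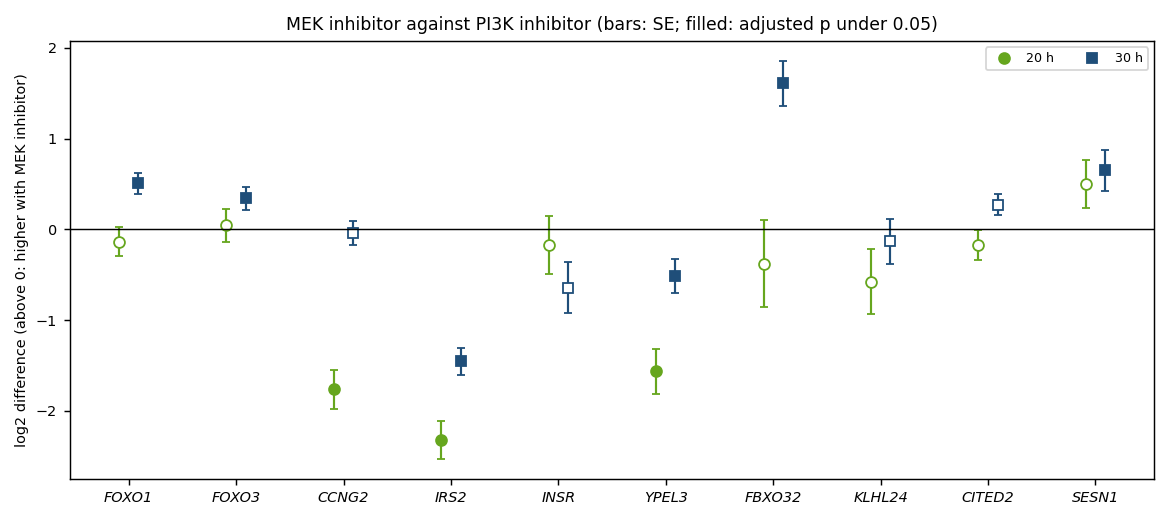
Log2 difference of each of the 10 genes between the MEK and the PI3K inhibitor at 20 h and at 30 h (positive values, higher with the MEK inhibitor), with bars of 1 SE from the edgeR fit and filled symbols for an adjusted p under 0.05. IRS2 lies below 0 at both times, CCNG2 moves from -1.76 to -0.04 and FBXO32 reaches 1.61 at 30 h.

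In the edgeR fit with the block the MEK inhibitor's effect itself grew with time at 3 genes. Only CCNG2 was also called in DESeq2 (383 of 11147 genes) and without the cells of highest depth (395 of 10911). The difference between the MEK inhibitor and EGF alone was larger at 30 h than at 20 h by 2.16 for FBXO32 (SE 0.57, adjusted p = 0.0123), 1.07 for CCNG2 (SE 0.30, adjusted p = 0.0234) and 0.84 for CITED2 (SE 0.22, adjusted p = 0.0121), against 2.92% of all genes. Without the block these were 0 genes (adjusted p 0.0977, 0.171 and 0.398), while 7 members had an unadjusted p under 0.05 in the fit with the block, 6 upward and 1 downward. The downward one was SESN1 (-0.89, adjusted p = 0.115), and among the 6 IRS2 (0.84, adjusted p = 0.0815) had a negative effect at 20 h that was smaller in size at 30 h. For the PI3K inhibitor the same test in edgeR called 0 of 10 members, against 5.65% of all genes, with 3 members at an unadjusted p under 0.05 and 0 called by DESeq2. INSR came nearest, at 1.37 (SE 0.45, adjusted p = 0.0562).

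Some members were still below their unstimulated level with either inhibitor. Against unstimulated cells, 5 members were still lower with the MEK inhibitor at 30 h (8.27% of all genes) and 6 with the PI3K inhibitor (10.5%), with medians of -0.82 and -0.94. FBXO32 was 3.99-fold lower with the MEK inhibitor (adjusted p = 2.34e-08) and 12.2-fold lower with the PI3K inhibitor (adjusted p = 6.2e-14). YPEL3 differed by -1.90 (adjusted p = 5.62e-08) and by -1.38 (adjusted p = 1.49e-05), the latter at -1.66 and -0.90 in the libraries. IRS2 was lower with the MEK inhibitor (-1.80, adjusted p = 1.12e-07) and did not pass with the PI3K inhibitor (-0.34, adjusted p = 0.282). CCNG2 (-0.14 and -0.10) and CITED2 (0.34 and 0.07) did not pass in either. The KLHL24 calls (-1.23, adjusted p = 0.0154, and -1.10, adjusted p = 0.0278) were uneven, at -0.72 and -0.69 in library 1 and -2.43 and -2.24 in library 2. They ended without the sums of fewer than 100 cells, at -0.73 (adjusted p = 0.237) and -0.60 (adjusted p = 0.32).

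Conditions also differed in how many cells were in the cycle, so the members were read within ranges of the cycle score. The low and high ranges lie at the ends of the score over all cells (cuts at 0.233% and 0.667% of 3000 thinned UMIs) and are not cell types, and 47.1% of cells lay within 0.1 point of a cut. At 30 h 18.8% and 6.40% of cells with EGF alone were in the low range, 60.1% and 26.8% under MEK inhibition and 73.7% and 50.4% under PI3K inhibition. No test was made within ranges, and the same direction in both libraries is the only replicate check. Shares and medians over all genes within these ranges are not given, so the member counts below have no background to be read against.

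Among low-range cells at 30 h 8 members were higher with the MEK inhibitor in both libraries and 1 lower, with a median log2 difference of 0.81. For the PI3K inhibitor 6 were higher and 2 lower, with a median of 0.50. The EGF-alone sums of this range came from only 46 and 22 cells. CCNG2 was at 9.05 and 11.5 CPM with EGF alone (5 and 4 UMIs), 34.2 and 28.1 under MEK inhibition and 33.4 and 31.7 under PI3K inhibition. IRS2 was at 18.1 and 17.2, 10.3 and 20.4, and 45.8 and 44.2 CPM. In this range CCNG2 with both inhibitors and IRS2 with the PI3K inhibitor lay above EGF alone in both libraries. What the cycle state contributes to these differences was not tested. FBXO32 was at 9.05 and 8.62 CPM with EGF alone (5 and 3 UMIs), 20.2 and 23.7 under MEK inhibition and 2.67 and 4.80 under PI3K inhibition, which is below EGF alone in both libraries. YPEL3 differed little here, by 0.08 and 0.43 for the MEK inhibitor and by -0.14 and 0.70 for the PI3K inhibitor, and FOXO1 went in opposite directions in the libraries with the PI3K inhibitor (0.65 and -0.43).

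Among high-range cells at 30 h 8 members were higher and 1 lower in both libraries with either inhibitor, with medians of 0.99 for MEK and 0.77 for PI3K. FOXO1 was at 29.1 and 30.9 CPM with EGF alone, 59.9 and 66.2 under MEK inhibition and 57.2 and 49.4 under PI3K inhibition. CITED2 was at 20.8 and 25.8, 42.7 and 75.7, and 44.8 and 46.6 CPM. CCNG2 was at 17.7 and 13.1, 37.6 and 30.4, and 24.9 and 27.6 CPM. All of these inhibitor groups lay above EGF alone, although the high PI3K inhibitor range held only 27 and 81 cells. At 20 h the high-range medians were 0.07 for the MEK inhibitor and 0.66 for the PI3K inhibitor. The low range at 20 h has no value for library 2, where EGF alone had 19 such cells.

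**Figure D4:**
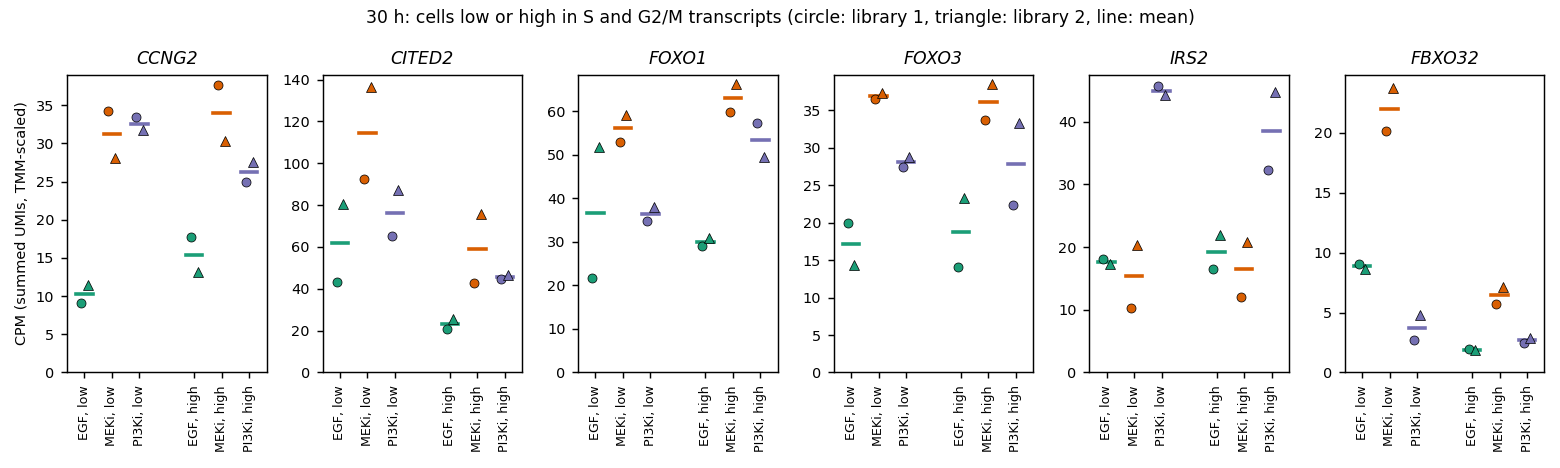
TMM-scaled CPM at 30 h of 6 members (panels) in cells of the low and the high range of the cycle score, for EGF alone, the MEK inhibitor (MEKi) and the PI3K inhibitor (PI3Ki), with 1 point per library and a line at the mean. CCNG2 is above EGF alone in both ranges with both inhibitors and IRS2 with the PI3K inhibitor, while FBXO32 in low-range cells is above EGF alone with the MEK inhibitor and below it with the PI3K inhibitor.

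Other genes of the pathway were read from lists, which contain the members too. The shares over all tested genes to read these counts against are 13.9% lower at 15 h of EGF, 18.9% higher and 19.0% lower with the MEK inhibitor at 30 h, and, for the PI3K inhibitor at that time, 19.7% higher and 20.0% lower. Of 14 tested genes of FOXO-linked growth arrest, 11 were lower at 15 h of EGF, and 8 were higher at 30 h with the MEK inhibitor (median 0.89) and 8 higher and 1 lower under PI3K inhibition (median 0.79). The 1 lower gene was CDKN1B, which encodes the CDK inhibitor p27 (-0.56, SE 0.21, adjusted p = 0.0297), and is named here after its value was seen. BTG1, an antiproliferative co-regulator, was at 140.9 and 131.6 CPM with EGF alone at 30 h, 499.7 and 465.1 under MEK inhibition and 232.7 and 242.4 under PI3K inhibition. It rose by 1.83 with the MEK inhibitor (adjusted p = 1.82e-17), with no overlap between the groups. MXD4, which competes with MYC for MAX, rose with both, by 1.39 (adjusted p = 9.92e-14) and 1.61 (adjusted p = 3.69e-16), and its relative MXI1 by 1.36 with the PI3K inhibitor (adjusted p = 4.13e-09).

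Receptor feedback genes, a list of 10 tested that holds IRS2 and INSR, had 6 members higher and 1 lower under PI3K inhibition at 30 h (median 0.75). Under MEK inhibition 1 was higher and 1 lower (median -0.19), and the difference between the inhibitors was not tested over the list. ERBB2, a receptor of the EGF receptor family, was the 1 that rose with the MEK inhibitor (0.80, adjusted p = 0.0131). EIF4EBP1, which restrains translation when mTORC1 is off, fell with both, by 1.75 on the log2 scale (adjusted p = 6.72e-19) and by 0.70 (adjusted p = 1.58e-07). TRIB1, a pseudokinase, rose by 0.96 with the PI3K inhibitor (adjusted p = 0.000503).

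The list of ubiquitin ligase and autophagy genes had 14 tested. Of these 7 were higher at 20 h and 7 at 30 h with the PI3K inhibitor, and the other 7 did not pass at 30 h. With the MEK inhibitor 0 passed at 20 h in edgeR (2 were higher at an unadjusted p under 0.05) and 7 were higher at 30 h. At 20 h 11.4% of all genes were called higher with the PI3K inhibitor and 4.80% with the MEK inhibitor. The count of 0 is near the latter share. BNIP3L, a mitophagy receptor, was at 7.12 and 4.40 CPM with EGF alone, 15.3 and 10.3 under MEK inhibition and 59.2 and 49.6 under PI3K inhibition at 30 h. This is a rise of 3.28 with the PI3K inhibitor (adjusted p = 1.15e-20), larger than that of any member. MAP1LC3B, which marks autophagosomes, rose by 1.06 with the PI3K inhibitor (adjusted p = 9.79e-13). Its relative GABARAPL1 rose by 1.61 (adjusted p = 1.01e-07) with the MEK inhibitor, as did WIPI1 by 1.90 (adjusted p = 1.66e-05).

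Among 9 tested stress and metabolism genes 7 were lower at 15 h of EGF, and at 30 h 5 were higher with the MEK inhibitor, and 3 were higher and 1 lower under PI3K inhibition. TXNIP, a thioredoxin-binding arrestin that limits glucose uptake, was at 86.5 and 61.9 CPM with EGF alone, 142.1 and 84.4 under MEK inhibition and 398.8 and 237.7 under PI3K inhibition (2.07, adjusted p = 6.31e-21). SELENOP, a secreted selenium carrier, was at 12.9 and 3.72, 74.6 and 22.1, and 13.7 and 10.2 CPM, and rose by 2.50 with the MEK inhibitor (adjusted p = 3.31e-14). The PI3K inhibitor group of TXNIP stood above both others, and for SELENOP it was the MEK inhibitor group. The peroxiredoxin genes PRDX5 and PRDX3 moved by 1.04 with the MEK inhibitor (adjusted p = 8.7e-13) and by -0.43 with the PI3K inhibitor (adjusted p = 0.000355).

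Of 5 tested death genes, 3 were higher and 1 lower under MEK inhibition at 30 h, and 1 was higher and 1 lower under PI3K inhibition, the latter at the share over all genes. TRADD, an adaptor of TNF receptor signalling, rose with both (0.91, adjusted p = 5.57e-07, and 1.10, adjusted p = 6.34e-09). BCL6, a transcriptional repressor, rose by 1.18 with the MEK inhibitor (adjusted p = 0.000657), and PMAIP1, which encodes the BH3-only protein NOXA, fell by 1.15 with the PI3K inhibitor (adjusted p = 4.51e-05). The core regulators upstream of FOXO were mixed: of 21 tested, 3 were higher and 6 lower under MEK inhibition, and 8 were higher and 5 lower under PI3K inhibition. The counts under MEK inhibition and the lower count under PI3K inhibition are near the shares over all genes. XPO1, the exportin that carries FOXO proteins out of the nucleus, fell by 0.78 with the PI3K inhibitor (adjusted p = 1.02e-07). With the MEK inhibitor AKT1 fell by 0.54 (adjusted p = 8.78e-05) and PIK3R1, a regulatory subunit of PI3K, by 0.51 (adjusted p = 9.48e-05). Cell cycle lists moved at the same time: of 42 tested S phase genes 36 were lower with each inhibitor at 30 h. Of 54 G2/M genes 53 were lower under PI3K inhibition, whereas 10 were higher and 6 lower under MEK inhibition (median 0.03). That higher count is near the share over all genes, and the lower count is below it.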

How the data were processed

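The deposited tables, 1 for each of the 2 libraries, hold unnormalised UMI counts of genes (by symbol) in single cells. The submitters' processing notes name Cell Ranger 3.0.2, Seurat and genome build GRCh38. The sources used here do not state how tags were called, how cells were filtered, the strand setting or the annotation release. Conditions came from the deposited tag annotation, all 4837 deposited cells were kept, and no doublet caller was run.

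Counts were summed per library and condition into 16 sums and fitted with edgeR 4.0.16 (R 4.3.3, limma 3.58.1; filterByExpr, TMM, quasi-likelihood F test, library as a block). Adjusted p is Benjamini-Hochberg over 11147 genes, with a threshold of 0.05. Prior and residual degrees of freedom were 43.3 and 7, and the biological coefficient of variation was 0.0604. Values of single libraries are log2 differences with a prior count of 2, so those of scarce genes are drawn toward 0. SE is the size of the log2 difference divided by the root of F. CPM are TMM-scaled (marker sums unscaled), and UMI counts carry no length correction, so levels are compared between conditions and not between genes. Intervals on counts cover counting error only.

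Conditions of a replicate shared 1 pooled library, which is where the pairing comes from. Over 4706 genes of at least 20 CPM, deviations of conditions of the same library correlated at r = 0.588 in the median (28 pairs, range 0.281 to 0.677).

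The members and lists were chosen with earlier results of these data known. For each list and inhibitor the named genes are the 2 outside the set with the smallest adjusted p at 30 h. A gene that this rule names is not reported here. Cycle scores used cells thinned to 3000 UMIs, and a sum needed 20 cells. Gene positions are from GENCODE v29 on GRCh38. FOXO1 overlaps the same-strand LINC00598, and SESN1 the same-strand RNU6-653P. FOXO1, FOXO3, CCNG2, IRS2, YPEL3, CITED2 and SESN1 overlap genes on the opposite strand, whose reads cannot be told apart where strand was not used. FOXO1, FOXO3 and CCNG2 have processed pseudogenes elsewhere that could take or give reads. Alternatives were DESeq2 1.42.0, library totals, other filters, no block, without the deepest cells (above the 90th percentile of UMIs), without small sums, without each library, and the compared conditions alone. The script was tested on simulated data.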

Additional observations from a re-analysis of the deposited data

Results flagged for a closer look

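The effect of the MEK inhibitor against EGF alone differed between the times of sampling at 3 of the 10 genes, by edgeR's test of the difference between the effects. The effect at 30 h exceeded that at 20 h by 2.16 on the log2 scale for FBXO32 (1.92 and 2.06 in libraries 1 and 2), by 1.07 for CCNG2 (0.88 and 1.37) and by 0.84 for CITED2 (0.36 and 1.27). All 3 differences were positive in 2 of 2 libraries. Without the cells of highest depth the FBXO32 difference was 1.52 (adjusted p = 0.214) and the adjusted p of CITED2 was 0.053. The share of cells in the low range of the cycle score moved with them, from 32.4% and 15.2% with the MEK inhibitor at 20 h to 60.1% and 26.8% at 30 h, and its part in the result was not tested.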

How the results depend on the processing

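Of 1048 alternative values of single genes 927 were counted as the same, 39 lost the call and 16 gained one. A further 66 moved when 1 library was left out, and 0 called values changed sign. For the alternative fits, the same means on the same side of the threshold. With library 1 or 2 left out no threshold applied, and 81 and 93 values were counted as the same. These lay within 1 SD, taken over the 2 libraries, of the main value. Values that were never called changed sign 32 times. Leaving out a library left no residual degrees of freedom, so it gives values and no counts. The fit without the replicate block called 2 members for the MEK inhibitor at 20 h (4 with it), 4 for the PI3K inhibitor at 20 h (7), 3 for MEK against PI3K at 30 h (6), 3 for the MEK inhibitor at 30 h against unstimulated cells (5) and 0 for the change of the MEK effect (3). Over all genes it called 342 against 1332 for the MEK inhibitor at 20 h, 840 against 2607 for the PI3K inhibitor, and 2137 against 4216 and 2384 against 4428 at 30 h. It called 2703 against 4632 for MEK against PI3K at 30 h and 36 against 622 for the change of the MEK effect. For the MEK inhibitor at 30 h against unstimulated cells it called 990 against 2023. A filter at a mean of 20 CPM left 5 members to test among 4705 genes. At 15 h of EGF against unstimulated cells 5 members passed, against 2054 of all genes. For EGF at 30 h against 15 h 1 member passed, against 1430 genes. For the MEK and PI3K inhibitors at 30 h 4 and 5 members passed, against 2502 and 2670 genes. For these against unstimulated cells 3 and 2 members passed, against 1467 and 1513 genes. DESeq2 called 3 members for MEK against PI3K at 30 h (3550 of all genes) and 1 for the change of the MEK effect (383 of all genes). For that change FBXO32 had no adjusted p. Without the cells of highest depth that change was called for 1 member, against 395 of 10911 genes. The change of the PI3K effect was called for 1 member without a filter (592 of 16366 genes). It was called for 1 in the fit of only the conditions compared (812 of 10687 genes). With the cycle score cut into 2 ranges the high-range medians were 0.12 for the MEK inhibitor at 20 h and 0.71 for the PI3K inhibitor at 30 h. Depth limits the members with few UMIs in unstimulated cells of library 2, such as INSR and SESN1 (4 UMIs each) and KLHL24 (10).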

Other observations

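Outside the lists, the genes whose levels were most like the members' mean profile over the 16 sums, among 4701 genes of at least 20 CPM, were GOLGB1, a Golgi tether (r = 0.96), MMP24OS (0.96), METRN, a secreted neurotrophic factor (0.95), the tetraspanin CD9 (0.95) and the interferon gamma receptor subunit IFNGR1 (0.95). They were chosen for this likeness, and the sums share libraries, so these values are a description with no test. Of the members, YPEL3 (0.94), FOXO1 (0.92) and FOXO3 (0.91) followed the mean of the other members most closely, and INSR (0.43), IRS2 (0.57) and SESN1 (0.60) least. The pair least alike was IRS2 and SESN1 (r = 0.12).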
